A study of Mus musculus with 36 samples.

Results

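Microglia, the resident immune cells of the brain, take on an activated state when they meet lipopolysaccharide (LPS), a cell wall component of Gram-negative bacteria. LPS is bound by CD14 and the TLR4 and MD-2 receptor complex, which signals through MyD88 to the transcription factor NF-kB and through TRIF to interferon beta. Cytokine and chemokine genes follow the former route and interferon-stimulated genes the latter. Cannabidiol (CBD) is a lipophilic, non-intoxicating constituent of Cannabis with many reported protein targets. In this comparison, BV-2 cells that received LPS together with CBD for 24 h were set against BV-2 cells that received only ethanol (EtOH), the vehicle of CBD, for 24 h. The comparison joins the action of LPS and that of CBD, and so asks how far the cells stood from the unstimulated state at the end of the combined exposure.

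A total of 6 libraries of the 36 in the series were used, 3 of LPS with CBD (LPS+CBD, replicates 1 to 3 in the labels) and 3 of EtOH (replicates 4 to 6), and every gene of the table that holds them was taken. BV-2 is an immortalised mouse microglial line, so all libraries come from 1 line grown in culture. LPS from Escherichia coli was given at 600 ng/mL, CBD at 6 µM and EtOH at 0.2%, and all groups had their serum lowered just before treatment. The other libraries used beside them are LPS alone at 24 h and the LPS+CBD and EtOH groups at 4 h, with 3 libraries each. Which vehicle the LPS libraries received, if any, is not given in the sources used here, so that LPS alone and EtOH or LPS+CBD may differ by the vehicle as well. The series describes 3 independent experiments, but the labels do not tie the numbers 1 to 3 of LPS+CBD to the numbers 4 to 6 of EtOH.

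Between 14.5 M and 26.7 M reads were counted per library, with EtOH replicate 4 the deepest. Mitochondrial genes took 1.25% to 1.40% of the reads in LPS+CBD and 2.03% to 2.25% in EtOH, without overlap between the groups. All 10 general macrophage and microglia markers, among them Itgam, Ptprc, Csf1r and Spi1, had normalized counts of 10 or more in every library, and their sum was 37929 to 42870 in EtOH and 44085 to 59365 in LPS+CBD. The markers that separate brain microglia from other macrophages were sparse. Siglech and Gpr34 had at most 2.85 normalized counts in any library, and Sall1 and Fcrls were not among the listed genes. P2ry12, the ADP receptor of resting microglia, had 44.2, 49.4 and 80.0 in EtOH and 56.0, 57.8 and 47.1 in LPS+CBD. Of other lineages, Cd3e, Cd3d, Cd4, Cd8a (T cells), Rbfox3, Tubb3 (neurons), Ly6g and Mpo (neutrophils) were under 10 in all 6 libraries. Other members of the lineage lists were higher. Summed normalized counts per library were 838 to 1828 for oligodendrocyte markers and 195 to 366 for neuron markers. They were 70.7 to 235 for T cell and 70.7 to 158 for endothelium markers. For astrocyte, fibroblast and neutrophil markers they were at most 29.9. Single genes of these other lineage lists were called, Map2 (0.54), Lck (1.42) and Dcn (0 reads in EtOH, at least 14.5-fold with a floor of 3 reads over that group) higher and Mbp (-0.88), Kdr (-1.35) and Pecam1 (-0.60) lower, Pecam1 no longer without EtOH replicate 4 or 6 or LPS+CBD replicate 3. Dcn and Kdr had 10 or more normalized counts in 1 of the groups alone. The part of other cells in the results was not tested.

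Of 11858 genes tested, 5989 were called between LPS+CBD and EtOH, which is 50.5% (limma, Benjamini-Hochberg adjusted p below 0.05). They divided almost evenly into 3021 higher (25.5%) and 2968 lower (25.0%), and the median log2 fold change (log2FC) over all genes was -0.003. The size factors, set within these 6 libraries, place the median near 0, so that the even split partly follows from the scaling. Under upper-quartile scaling 2871 were higher and 3080 lower, with a median of -0.019. An absolute log2FC above 1 was reached by 1503 of the called genes (12.7% of those tested), 795 of them higher and 708 lower. In 7170 genes (60.5%) every library of one group lay beyond every library of the other. With so large a share of genes called, a list with about 50.5% of its members called stands at the level of all genes, and the lists below are read against these shares. Counts under LPS alone against EtOH stand beside 10.8% of all genes higher and 9.72% lower. Counts between LPS+CBD and LPS alone stand beside 23.9% higher and 24.8% lower. A log2FC is on the scale of log2 of the normalized count plus 1, values of the 3 libraries are normalized counts in the order of the replicate numbers, and adjusted p-values are taken over all genes tested. A gene under 10 in every library of one group passed the filter on low values through the other group alone, so that it had to differ. This held for 179 of the 11858 genes (152 of them called), which include Csf3, Il6, Il36a, Urah, Ffar2, Ticam2, Ccl12 and Dcn, high in LPS+CBD, and Grin1, Ldc1, Cytip, Ccl22 and Kdr, high in EtOH. Their values are a description, given with no adjusted p in any comparison where this held, and they could not be tested when a library of the high group was left out. Of the genes tested in the lists, 1 of LPS sensing, 2 of the cytokines, 2 of the chemokines, 1 of nitric oxide and prostaglandin production and 1 of the p53 targets were of this kind.

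**Figure D1:**
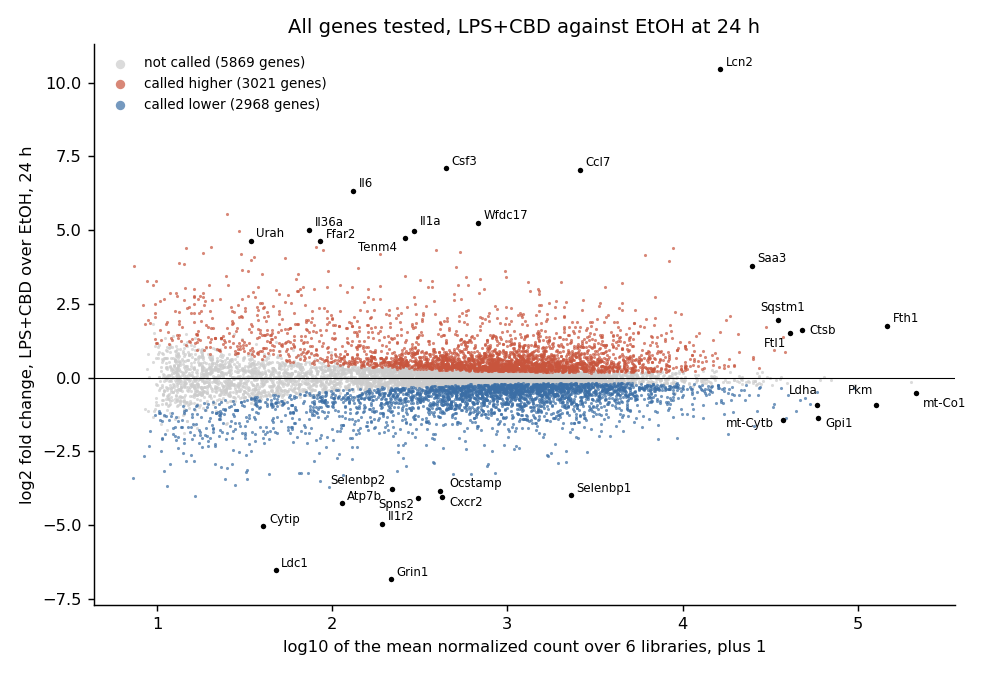
Log2FC of LPS+CBD over EtOH at 24 h (vertical axis) against log10 of the mean normalized count plus 1 over the 6 libraries (horizontal axis), 1 point per gene tested. Red points were called higher (3021 genes), blue points lower (2968) and grey points were not called, and the genes named by size are labelled, from Lcn2 at 10.44 down to Grin1 at -6.84.

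The genes with the largest rises were mostly secreted products of activated macrophages, and their choice required groups that did not overlap. Lcn2 (chromosome 2, 32274645 to 32278264, GRCm39), which encodes lipocalin 2, an iron-siderophore binding protein, had 17.1, 25.3 and 25.4 in EtOH and 25691, 35266 and 37495 in LPS+CBD (log2FC 10.44, SE 0.17, adjusted p 5.67e-10). Each LPS+CBD library thus stood far above each EtOH library. Under LPS alone its log2FC against EtOH was 7.98 (adjusted p 1.38e-09), and LPS+CBD exceeded LPS alone by 2.48 (adjusted p 1.91e-05). Csf3 (chromosome 11, 98592089 to 98594455), the granulocyte colony-stimulating factor, had 8.55, 2.67 and 6.34 in EtOH and 977, 1052 and 631 in LPS+CBD (log2FC 7.09). The monocyte-attracting chemokine Ccl7 (chromosome 11, 81936538 to 81938351) had 74.1, 13.3 and 53.1 in EtOH and 6378, 4346 and 4725 in LPS+CBD (log2FC 7.03, SE 0.48, adjusted p 3.71e-06). Both were near the detection limit or low in EtOH and high in all LPS+CBD libraries. Il6 (chromosome 5, 30218112 to 30224979), a cytokine of the acute-phase response, had 1.42, 1.33 and 4.75 in EtOH and 234, 235 and 307 in LPS+CBD (log2FC 6.34). Il1a, which encodes interleukin-1 alpha, had 12.8, 17.3 and 20.6 in EtOH and 515, 743 and 449.8 in LPS+CBD (log2FC 4.98, SE 0.23, adjusted p 4.94e-07), and Il36a, a cytokine of the same family, had 2.85, 5.34 and 2.38 in EtOH and 174, 134 and 116 in LPS+CBD (log2FC 5.01). For these 3 cytokine genes no LPS+CBD library came near the EtOH range.

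Among the other largest rises, Wfdc17, a small secreted protein of activated macrophages, had 38.5, 34.7 and 28.5 in EtOH and 1449.9, 1386 and 1128 in LPS+CBD (log2FC 5.25, adjusted p 4.83e-08). Tenm4 (chromosome 7, 95820453 to 96560300), a teneurin transmembrane protein, had 15.7, 8.004 and 38.0 in EtOH and 420.3, 356 and 715 in LPS+CBD (log2FC 4.72, adjusted p 2.75e-05). Tenm4 did not pass the test under LPS alone, where its log2FC was -0.68 (adjusted p 0.407), and LPS+CBD exceeded LPS alone by 5.40 (adjusted p 4.89e-06). Ffar2, the receptor for short-chain fatty acids, had 5.70, 6.67 and 3.96 in EtOH and 108, 144 and 237 in LPS+CBD (log2FC 4.62) and exceeded LPS alone by 6.77. Urah, an enzyme of urate breakdown, had 5.70, 0 and 1.58 in EtOH and 71.9, 62.1 and 57.0 in LPS+CBD (log2FC 4.64), while its log2FC under LPS alone was 4.98 and its difference from LPS alone was -0.34 (adjusted p 0.255). Among these 10 genes, Il36a and Urah did not pass the test between LPS+CBD and LPS alone. Il1a was lower in LPS+CBD than in LPS alone at -0.52 (adjusted p 0.0231). The other 7 were higher, Ffar2 as a description only, where 23.9% of all genes were called higher. That comparison shares the LPS+CBD libraries with the one that chose these genes, so that the direction was partly fixed by the choice.

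The largest falls lay in genes of varied function, whose choice likewise required groups that did not overlap. Grin1 (chromosome 2, 25181193 to 25209199), which encodes the obligatory subunit of NMDA glutamate receptors, had 338, 429.5 and 508 in EtOH and 1.22, 6.54 and 1.96 in LPS+CBD (log2FC -6.84). Its 3 LPS+CBD libraries held few reads and each of its 3 EtOH libraries held far more. Ldc1 (chromosome 4, 130102902 to 130116194), a leucine decarboxylase, had 74.1, 107 and 97.4 in EtOH and 0 reads in all LPS+CBD libraries. With a floor of 3 reads over the LPS+CBD group it was at least 85.2-fold lower. Cytip, a cytohesin-binding protein of leukocytes, had 62.7, 69.4 and 99.0 in EtOH and 0, 3.27 and 1.96 in LPS+CBD (log2FC -5.04). Il1r2 (chromosome 1, 40113239 to 40164391), the decoy receptor that binds interleukin-1 without signalling, had 366, 349.5 and 402 in EtOH and 14.6, 7.63 and 11.8 in LPS+CBD (log2FC -4.96, SE 0.24, adjusted p 5.11e-07), with its groups far apart. Cxcr2 (chromosome 1, 74193150 to 74200405), the receptor of CXCL1, CXCL2 and related chemokines, had 724, 916 and 743 in EtOH and 47.5, 69.8 and 30.4 in LPS+CBD (log2FC -4.05, SE 0.25, adjusted p 2.27e-06). Under LPS alone the log2FC was -3.82 (adjusted p 6.03e-07) in Grin1 and -2.73 (adjusted p 3.59e-07) in Il1r2, while Cxcr2 did not pass the test at -0.18 (adjusted p 0.303). LPS+CBD was below LPS alone in all 3 genes, at -2.96, -2.20 and -3.86. That comparison shares the LPS+CBD libraries by which these genes were chosen, so that the direction was partly fixed by the choice.

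The copper-transporting ATPase gene Atp7b had 199, 196 and 243 in EtOH and 6.09, 18.5 and 8.84 in LPS+CBD (log2FC -4.26, adjusted p 8.28e-06). Spns2, an exporter of sphingosine 1-phosphate, had 463, 566 and 695 in EtOH and 52.4, 42.5 and 15.7 in LPS+CBD (log2FC -4.07, adjusted p 1.86e-05). Ocstamp, a transmembrane protein of cell fusion in osteoclasts, had 574, 829.8 and 871 in EtOH and 76.8, 91.6 and 18.7 in LPS+CBD (log2FC -3.84, adjusted p 0.000121). In all of these the highest LPS+CBD library was well below the lowest EtOH library. Selenbp1 and Selenbp2, closely related selenium-binding protein genes, between which shared reads were not examined, had log2FC values of -3.99 and -3.78. Selenbp1 had 2963, 4699.7 and 5289 in EtOH and 264, 464 and 146 in LPS+CBD. All 10 of the largest falls were also called against EtOH under LPS alone except Cxcr2. That comparison called 9.72% of all genes lower. It shares the EtOH libraries by which these genes were chosen, so that a fall there was partly fixed by the choice. Ldc1 and Cytip, which passed the filter through EtOH alone under LPS+CBD, are counted here as a description only. Each value was nearer to 0 there, which was partly fixed by the choice of these genes as the largest falls under LPS+CBD. Grin1, Cytip, Il1r2, Spns2, Selenbp1 and Selenbp2 overlap annotated genes on the opposite strand, and whether reads were counted by strand is not given in the sources used here. Among the largest rises, Csf3, Il6, Il1a, Tenm4 and Urah overlap such genes as well.

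**Figure D2:**
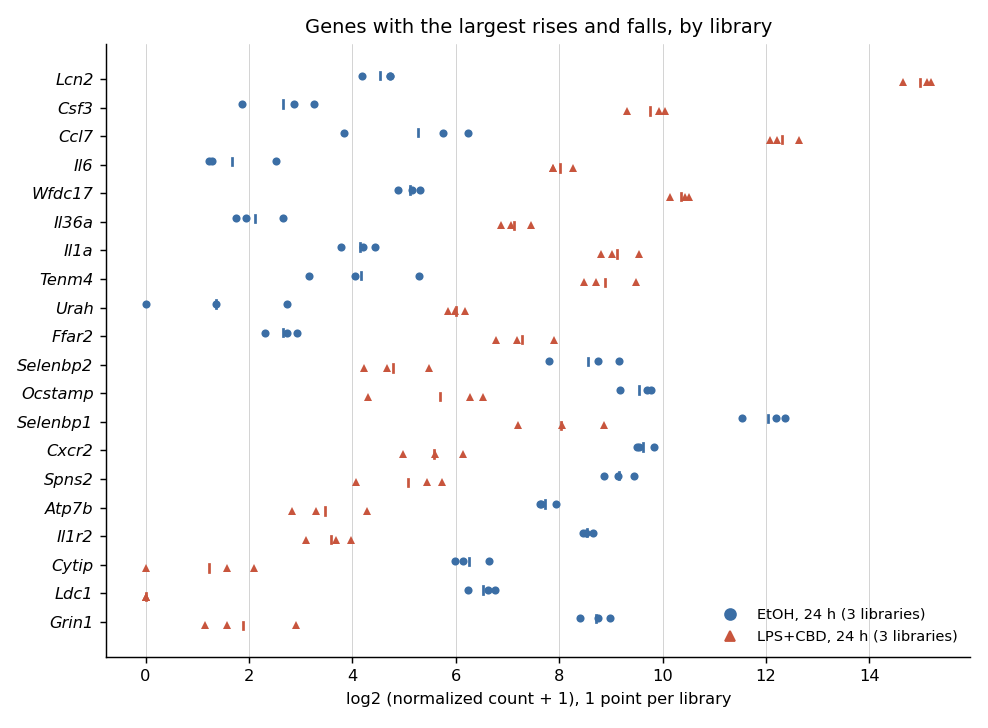
Log2 of the normalized count plus 1 (horizontal axis) of the 10 genes with the largest rises and the 10 with the largest falls, 1 point per library, 3 EtOH libraries and 3 LPS+CBD libraries at 24 h, with short bars at the group means. In each of the 20 genes the 3 libraries of one group lie beyond the 3 of the other, as the choice of these genes required.

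Ranked by the difference of mean normalized counts, the rises were led by ferritin, lysosomal and acute-phase transcripts. The ferritin heavy chain Fth1 had 61907, 65277 and 74762 in EtOH and 215356, 247037 and 221674 in LPS+CBD (log2FC 1.76, SE 0.13, adjusted p 6.31e-06), and the light chain Ftl1 had 18991, 20390.3 and 24064 in EtOH and 56240.4, 66108 and 59246 in LPS+CBD (log2FC 1.52, SE 0.11, adjusted p 6.14e-06). Ferritin stores iron, and both genes have many processed pseudogenes, so that some of their reads are of uncertain origin. The lysosomal protease cathepsin B, Ctsb, had 22854, 21211 and 27694 in EtOH and 75778, 74796 and 67801 in LPS+CBD (log2FC 1.61, adjusted p 5.29e-06). Sqstm1, the autophagy receptor p62, had 12933, 14257 and 16096 in EtOH and 53522, 49005 and 64650.5 in LPS+CBD (log2FC 1.95, adjusted p 2.57e-06), and Saa3, a serum amyloid protein of macrophages, had 2937, 4686 and 2407 in EtOH and 32299.9, 65896 and 40714 in LPS+CBD (log2FC 3.78, adjusted p 4.79e-06). The groups did not overlap in any of the 5 genes, as the choice of these genes required. Under LPS alone Saa3 had a log2FC of 3.81 (adjusted p 2.66e-06) and Fth1 of 0.64 (adjusted p 0.00431), Sqstm1 was lower than in EtOH at -0.44 (adjusted p 0.00516), and Ctsb and Ftl1 did not pass the test (0.14 and 0.20). The falls were led by Pkm, mt-Co1, Gpi1, Ldha and mt-Cytb, which belong to glycolysis and the respiratory chain and are described with those lists.

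Of the 12 genes of LPS sensing, 8 were called higher and none lower, with a median log2FC of 0.446 beside -0.003 over all genes. The receptor genes moved little in size. Tlr4 had 867, 940.5 and 985 in EtOH and 1182, 1195 and 1253 in LPS+CBD (log2FC 0.38, adjusted p 0.00294), Ly96, which encodes MD-2, a log2FC of 0.63 and Cd14 of 0.51. Tlr2, the receptor of bacterial lipopeptides, had 883, 1218 and 914 in EtOH and 2149, 2929.7 and 2264 in LPS+CBD (log2FC 1.28, adjusted p 6.27e-05). The largest log2FC of the list was that of Ticam2, the adaptor TRAM that links TLR4 to TRIF, with 7.12, 5.34 and 3.96 in EtOH and 69.4, 64.3 and 81.5 in LPS+CBD (log2FC 3.51). Its counts were low in EtOH, and without any 1 LPS+CBD library it could not be tested. LPS+CBD exceeded LPS alone by 4.59. Ticam2 overlaps the gene Tmed7 on the same strand, and shared reads were not examined. Irak3, a negative regulator of the receptor kinases, had a log2FC of 1.81 and Irak2 of 1.42, whereas Myd88, Irak1, Irak4 and Traf6 did not pass the test (-0.02, -0.10, 0.17 and -0.13).

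NF-kB subunits and their inhibitors gave 11 of 15 genes higher and none lower, with a median of 0.468. Under LPS alone 10 were higher, where 10.8% of all genes were, with a median of 0.723. The inhibitors Bcl3, with 235, 346 and 288 in EtOH and 1412, 1662 and 1301 in LPS+CBD (log2FC 2.34, adjusted p 2.13e-06), and Nfkbiz, with 785, 872 and 757 in EtOH and 3089, 3565 and 3587 in LPS+CBD (log2FC 2.08, adjusted p 3.2e-07), had the largest values. Both are atypical inhibitor proteins that act in the nucleus. The groups were apart in each. Nfkb1, the precursor of p50, had a log2FC of 1.42, Nfkbia of 1.03 and Nfkbib of 1.41. Nfkb2, Rela and Nfkbid did not pass the test (0.21, 0.18 and 0.29), and Nfkb2 and Nfkbid were lower in LPS+CBD than in LPS alone, at -0.51 and -0.88.

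Cytokine genes gave 9 of 14 higher and none lower, with a median of 1.190, and chemokine genes 10 of 12 higher and 1 lower, with a median of 2.352. Among the cytokines, Il1b, which encodes interleukin-1 beta, stood out by its distance from LPS alone. It had 29.9, 65.4 and 32.5 in EtOH and 212, 519 and 162 in LPS+CBD (log2FC 2.68, SE 0.42, adjusted p 0.000477), so that the lowest LPS+CBD library was still above the highest EtOH library. Under LPS alone its log2FC against EtOH was 6.19 (adjusted p 1.03e-07), and LPS+CBD lay below LPS alone at -3.50 (adjusted p 6.04e-05). Il1rn, the natural antagonist of the interleukin-1 receptor, had 2067, 1491 and 1944 in EtOH and 12166, 12508 and 11401 in LPS+CBD (log2FC 2.73, SE 0.11, adjusted p 3.12e-07) and exceeded LPS alone by 1.38 (adjusted p 4.1e-06). Tnf, the tumour necrosis factor gene, had 2135, 1879.6 and 1515 in EtOH and 4760.3, 5236 and 3460.0 in LPS+CBD (log2FC 1.27, SE 0.16, adjusted p 0.000126), with a log2FC of 1.69 under LPS alone. Csf1, the growth factor of macrophages, had 954, 1059 and 1185 in EtOH and 2813, 3058 and 3534 in LPS+CBD (log2FC 1.55, adjusted p 3.59e-06). Csf1 and Osm, a cytokine of the interleukin-6 family with a log2FC of 1.10, did not pass the test under LPS alone (-0.20 and -0.32). Il27, Il18 and Tgfb1 did not pass the test against EtOH (-0.31, 0.21 and -0.34) and were lower in LPS+CBD than in LPS alone, at -2.10, -0.74 and -0.84. Il10, Il12a, Il12b and Ifnb1 were too low to be tested.

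Ccl2 (chromosome 11, 81926397 to 81928279), the principal attractant of monocytes, had 1023, 676 and 724 in EtOH and 19162, 17612 and 14053 in LPS+CBD (log2FC 4.40, SE 0.16, adjusted p 1.26e-07). Cxcl2, a ligand of CXCR2, had 1131, 906 and 1023 in EtOH and 15312, 17219.9 and 14763 in LPS+CBD (log2FC 3.95, SE 0.10, adjusted p 1.2e-08). Each LPS+CBD library of the pair exceeded each EtOH library by a wide margin, and both genes were also higher than under LPS alone, by 2.29 and 1.23. Ccl3 and Ccl4, which encode the macrophage inflammatory proteins 1 alpha and 1 beta, had log2FC values of 2.28 and 2.42, against 0.70 and 0.69 under LPS alone. The interferon-induced chemokine Cxcl10 had 85.5, 104 and 80.8 in EtOH and 800.5, 1803 and 612 in LPS+CBD (log2FC 3.41, adjusted p 2.28e-05). Ccl12 had 0 reads in all EtOH libraries and 36.6, 68.7 and 39.3 in LPS+CBD, at least 54.8-fold higher with a floor of 3 reads over the EtOH group. The one chemokine gene that fell was Ccl22, an attractant of regulatory T cells, with 14.2, 21.3 and 34.1 in EtOH and 2.44, 3.27 and 2.95 in LPS+CBD (log2FC -2.56). Ccl12 and Ccl22 are among the genes that passed the filter through 1 group alone. The promoter of Cxcl2 is shown because the NF-kB route is the one by which this gene is known to be induced, and capitals mark matches to the letters GGNNNTTCC on either strand (RefSeq, GRCm38.p6, chr5:90903649-90903948, plus strand, 5′ to 3′ in the direction of the gene).
Cxcl2: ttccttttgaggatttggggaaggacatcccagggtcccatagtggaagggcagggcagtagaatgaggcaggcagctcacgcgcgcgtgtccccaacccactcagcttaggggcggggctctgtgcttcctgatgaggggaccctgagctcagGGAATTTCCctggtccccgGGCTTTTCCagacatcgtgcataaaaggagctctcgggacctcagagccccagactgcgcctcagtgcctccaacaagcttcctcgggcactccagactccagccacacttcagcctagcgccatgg
Matches to these letters were found in the promoter windows of 7 of 10 chemokine genes and 7 of 13 cytokine genes with a window, beside 20.7% of 27025 genes. A match describes the letters of the 300-base window and is not a binding site.

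The chemokine receptor list gave 3 genes higher and 3 lower of 7 tested. Besides Cxcr2, the fractalkine receptor Cx3cr1 fell, from 107, 157 and 137 in EtOH to 13.4, 38.1 and 10.8 in LPS+CBD (log2FC -2.82, SE 0.40, adjusted p 0.000284). Under LPS alone Cx3cr1 was higher than in EtOH, by 1.28 (adjusted p 0.0023), so that the changes against the vehicle were opposite in sign, and LPS+CBD lay below LPS alone at -4.09 (adjusted p 6.66e-05). Ccrl2, an atypical receptor that binds chemerin, rose with 94.0, 128 and 142 in EtOH and 905, 1284 and 1004 in LPS+CBD (log2FC 3.13, adjusted p 1.42e-06), and Ccr1 had a log2FC of 0.71. In the list of microglial identity genes, which also holds Cx3cr1, 7 of 13 members were tested, 1 was called higher and 1 lower, and the call of the higher one was lost without EtOH replicate 4 or 5 or LPS+CBD replicate 1 or 2. P2ry12, P2ry13, Tmem119 and Csf1r did not pass the test (-0.06, 0.31, -0.22 and -0.54).

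Genes of nitric oxide, prostaglandin and superoxide production gave 9 of 14 higher and 2 lower, with a median of 0.891. Of the 2 lower genes 1 passed the filter through EtOH alone, and 1 was lower when any EtOH library was left out. Nos2, the inducible nitric oxide synthase, had 769, 999 and 999.8 in EtOH and 3616, 5912 and 1787 in LPS+CBD (log2FC 1.88, SE 0.33, adjusted p 0.00111). The LPS+CBD libraries were spread but all above the EtOH range. Under LPS alone its log2FC was 3.14 (adjusted p 5.83e-07), and LPS+CBD lay below LPS alone at -1.25 (adjusted p 0.0164). Acod1, which makes itaconate, had 737, 974 and 797 in EtOH and 6841, 12129 and 5513 in LPS+CBD (log2FC 3.21, adjusted p 5.43e-06), a value that did not differ from that of LPS alone beyond the test's threshold (-0.18, adjusted p 0.593). Ptgs2, the inducible cyclooxygenase, had a log2FC of 0.68 and the prostaglandin E synthase Ptges of 1.66, while Ptgs1, the constitutive cyclooxygenase, fell with 3464, 3338 and 3766 in EtOH and 1622, 1246 and 1326 in LPS+CBD (log2FC -1.34, adjusted p 6.5e-06). Of the NADPH oxidase subunits, Ncf4, Cybb and Cyba rose (1.76, 1.62 and 1.10) and Ncf1 did not pass the test (0.22).

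Interferon response genes were called higher in 17 of 18 tested, with a median log2FC of 2.342, and the one not called was Irf1 (0.32, adjusted p 0.224). Under LPS alone 17 were higher as well, with a median of 1.230, and 12 were higher in LPS+CBD than in LPS alone, beside 23.9% of all genes. Rsad2 (chromosome 12, 26492745 to 26506451), which encodes the antiviral enzyme viperin, had 557, 611 and 639 in EtOH and 8196, 18406 and 8015 in LPS+CBD (log2FC 4.14, SE 0.26, adjusted p 2.36e-06). Isg15 (chromosome 4, 156283912 to 156285253), a ubiquitin-like modifier, had 137, 164 and 181 in EtOH and 1479, 2649.6 and 1237 in LPS+CBD (log2FC 3.40, SE 0.24, adjusted p 4.12e-06). Ifit1, an RNA-binding antiviral protein, had 282, 354 and 418 in EtOH and 2713, 6125 and 2203 in LPS+CBD (log2FC 3.26, SE 0.31, adjusted p 2.5e-05). The groups were apart in each of them, and LPS+CBD replicate 2 was the highest library. In all 18 genes replicate 2 was the highest and replicate 3 the lowest LPS+CBD library, whereas over all genes tested replicate 2 was the highest in 4567 of 11858. Mx1, for example, had 58.4, 65.4 and 70.5 in EtOH and 456, 1285 and 279.9 in LPS+CBD (log2FC 3.06, adjusted p 0.000257). Without replicate 2, 17 genes were still called higher, with a median of 1.846. Irf7, a transcription factor of the response, had a log2FC of 1.84 and did not pass the test between LPS+CBD and LPS alone (0.53), although it passed with the replicate number as a block (adjusted p 0.0041).

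The promoters of Rsad2 and Isg15 are shown because these genes were among those with the largest rises of the list. Capitals mark matches to the interferon response letters GAAANNGAA on either strand (RefSeq, GRCm38.p6, Rsad2 at chr12:26456403-26456702, minus strand, Isg15 at chr4:156200769-156201068, minus strand, 5′ to 3′ in the direction of the gene).
Rsad2: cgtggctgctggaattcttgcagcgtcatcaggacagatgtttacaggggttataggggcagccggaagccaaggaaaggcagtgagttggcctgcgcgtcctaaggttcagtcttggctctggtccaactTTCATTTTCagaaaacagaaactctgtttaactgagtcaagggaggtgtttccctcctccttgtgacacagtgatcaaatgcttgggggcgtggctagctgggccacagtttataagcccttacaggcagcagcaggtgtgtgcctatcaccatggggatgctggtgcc
Isg15: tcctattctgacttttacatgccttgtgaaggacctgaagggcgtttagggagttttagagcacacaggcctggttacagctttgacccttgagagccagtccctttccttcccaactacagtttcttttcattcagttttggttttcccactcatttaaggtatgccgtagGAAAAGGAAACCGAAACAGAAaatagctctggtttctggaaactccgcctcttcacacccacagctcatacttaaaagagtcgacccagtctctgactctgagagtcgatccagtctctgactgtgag
These letters were found in 10 of 15 genes of the list that had a window, Bst2, Stat2 and Ifih1 among them, beside 9.76% of 27025 genes. In Rsad2 they form 1 stretch, and in Isg15 overlapping matches join into 1 longer stretch.

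**Figure D3:**
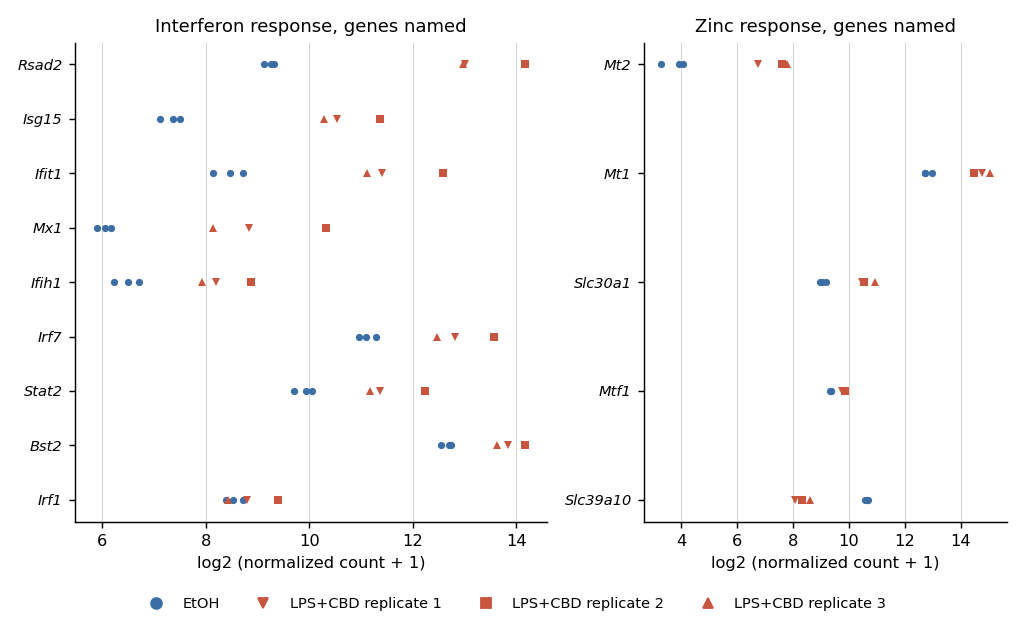
Log2 of the normalized count plus 1 (horizontal axis) of the interferon response and zinc response genes named in the text and tested, 1 point per library at 24 h, with EtOH and each LPS+CBD replicate drawn apart. LPS+CBD replicate 2 is the highest LPS+CBD library in each interferon response gene drawn, from Irf1 with overlapping groups to Rsad2 at 8015 to 18406 against 557 to 639, while in the zinc panel Slc39a10 alone lies below EtOH.

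All 8 acute-phase and granule genes tested were called higher, with a median of 1.992. All 8 were also higher under LPS alone, beside 10.8% of all genes, with a median of 2.540. Cp, which encodes the copper-carrying ferroxidase ceruloplasmin, had 59.8, 42.7 and 51.5 in EtOH and 770.0, 1239 and 1049 in LPS+CBD (log2FC 4.27, SE 0.19, adjusted p 3.92e-07) and exceeded LPS alone by 1.04 (adjusted p 0.00231). Hp, which encodes haptoglobin, and Mmp9, a matrix metalloproteinase, had log2FC values of 1.22 and 1.33 and lay below LPS alone, at -1.25 and -0.89. Cd38, an NAD-consuming enzyme, had a log2FC of 2.04 and S100a8, a calgranulin subunit, of 1.95.

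Antigen presentation and costimulation genes gave 11 of 14 higher and none lower, with a median of 0.594. The costimulatory genes Cd86, with 469, 586 and 553 in EtOH and 1596, 2171 and 1887 in LPS+CBD (log2FC 1.81, adjusted p 3.69e-06), and Cd40, with 369, 434 and 471 in EtOH and 1086, 1165 and 1231 in LPS+CBD (log2FC 1.45, adjusted p 5.18e-06), had non-overlapping groups. The early activation marker Cd69 had a log2FC of 2.26, against 2.23 under LPS alone. The class II genes H2-Aa and H2-Ab1 had at most 1.09 normalized counts in any library and were not tested. Of the Fc, scavenger and phagocytic receptors 9 of 14 were higher and 1 lower, with a median of 0.681, and the lower one lost its call without any single library other than LPS+CBD replicate 2. Fcgr1, the high-affinity receptor of immunoglobulin G, had 457, 442 and 380.3 in EtOH and 1608, 2189.7 and 1768 in LPS+CBD (log2FC 2.11, adjusted p 1.73e-06), and the scavenger receptor Msr1 had 403, 469.6 and 439 in EtOH and 2076, 3986 and 1690.2 in LPS+CBD (log2FC 2.46, adjusted p 3.55e-05). In the complement list 2 of 5 tested genes were higher and 1 lower. C3, the central component, had 2329, 3363 and 2503 in EtOH and 6181, 12168 and 6667 in LPS+CBD (log2FC 1.56, adjusted p 0.000357), and Cfp, the properdin gene, had 8999, 7554 and 8254 in EtOH and 5837, 5689 and 4287 in LPS+CBD (log2FC -0.66, adjusted p 0.00129), where it was higher than EtOH under LPS alone, by 0.56 (adjusted p 0.00171).

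Nrf2 is the transcription factor that induces antioxidant, glutathione and iron-handling genes. Of its 20 listed targets 15 were called higher and none lower, with a median of 0.781. Under LPS alone 10 were higher and 2 lower, beside 10.8% and 9.72% of all genes, with a median of 0.250. Hmox1, the inducible haem oxygenase, had 10190.2, 10709 and 12125 in EtOH and 21149, 19464 and 18132 in LPS+CBD (log2FC 0.83, SE 0.09, adjusted p 6.78e-05). Under LPS alone Hmox1 was lower than in EtOH, at -0.60 (adjusted p 0.00477), and LPS+CBD exceeded LPS alone by 1.44 (adjusted p 2.96e-05). Srxn1, which encodes sulfiredoxin, had 933, 1042 and 1134 in EtOH and 2646, 2289 and 2975 in LPS+CBD (log2FC 1.34, adjusted p 8.95e-06), and Gclm, the modifier subunit of glutathione synthesis, had 882, 902 and 921 in EtOH and 2110.3, 2029 and 2201 in LPS+CBD (log2FC 1.23, adjusted p 1.73e-06). Slc7a11, the cystine transporter, had 1741, 1870.3 and 1737 in EtOH and 5770.4, 6522 and 7681 in LPS+CBD (log2FC 1.89, adjusted p 1.07e-06). In these 4 genes the groups were apart. Gstm1 and Cat, a glutathione transferase and catalase, had log2FC values of 1.49 and 1.02 and did not pass the test under LPS alone (0.04 and -0.05). Among the genes that did not pass the test against EtOH were Gclc, the catalytic subunit of glutathione synthesis (0.01), Gsr (0.16), Pgd (0.23) and Nqo1 (0.64), and Nqo1 was close to the limit of detection with 21.4, 8.004 and 3.96 in EtOH and 17.1, 13.1 and 13.7 in LPS+CBD. The antioxidant response letters TGACNNNGC, on either strand, were found in 7 of 16 targets with a promoter window, beside 14.0% of all genes.

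Zinc handling genes gave 4 of 5 tested higher and 1 lower, with a median of 1.592, whereas under LPS alone none was higher and 1 was lower. The metallothioneins Mt1 and Mt2 bind zinc and copper. Mt1 (chromosome 8, 94905710 to 94906955) had 8006, 6663 and 6704 in EtOH and 27380.0, 22904 and 34130.4 in LPS+CBD (log2FC 1.97, SE 0.14, adjusted p 4.19e-06), and Mt2 (chromosome 8, 94899292 to 94900196) had 14.2, 16.0 and 8.71 in EtOH and 106, 195 and 221 in LPS+CBD (log2FC 3.62, SE 0.32, adjusted p 1.69e-05). Under LPS alone Mt1 was lower than in EtOH, at -0.57 (adjusted p 0.00177), and LPS+CBD exceeded LPS alone by 2.54 in Mt1 and 4.35 in Mt2. Slc30a1 (chromosome 1, 191638879 to 191645359), the exporter of zinc at the plasma membrane, had 587, 500.3 and 519.7 in EtOH and 1421, 1503 and 1965 in LPS+CBD (log2FC 1.59, SE 0.12, adjusted p 7.58e-06). Slc39a10 (chromosome 1, 46846704 to 46932012), an importer of zinc, fell, with 1526, 1614 and 1626 in EtOH and 272, 319 and 386 in LPS+CBD (log2FC -2.30, SE 0.12, adjusted p 1.04e-06). In all 4 genes the 3 libraries of one group lay beyond those of the other. Mtf1, which encodes the metal-sensing transcription factor of Mt1, Mt2 and Slc30a1, had a log2FC of 0.48 (adjusted p 0.000614). Slc30a2 was too low to be tested.

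The promoters of Mt1, Mt2 and Slc30a1 are shown because metal response elements are known to act in these genes. Capitals mark matches to TGCACNC or TGCGCNC on either strand (RefSeq, GRCm38.p6, Mt1 at chr8:94178839-94179138, plus strand, Mt2 at chr8:94172368-94172667, plus strand, Slc30a1 at chr1:191906531-191906830, plus strand, 5′ to 3′ in the direction of the gene).
Mt1: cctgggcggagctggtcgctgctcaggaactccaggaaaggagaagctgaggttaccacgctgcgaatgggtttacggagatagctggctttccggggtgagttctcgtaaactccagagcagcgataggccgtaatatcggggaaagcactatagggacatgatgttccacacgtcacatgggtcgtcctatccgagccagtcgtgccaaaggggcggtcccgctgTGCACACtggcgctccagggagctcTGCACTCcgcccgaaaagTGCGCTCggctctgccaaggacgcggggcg
Mt2: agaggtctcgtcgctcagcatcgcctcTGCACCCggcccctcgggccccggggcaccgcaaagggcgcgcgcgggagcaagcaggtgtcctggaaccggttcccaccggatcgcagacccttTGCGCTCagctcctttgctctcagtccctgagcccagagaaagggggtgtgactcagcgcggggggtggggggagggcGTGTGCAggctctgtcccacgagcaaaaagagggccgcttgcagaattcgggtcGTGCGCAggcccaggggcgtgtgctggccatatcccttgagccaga
Slc30a1: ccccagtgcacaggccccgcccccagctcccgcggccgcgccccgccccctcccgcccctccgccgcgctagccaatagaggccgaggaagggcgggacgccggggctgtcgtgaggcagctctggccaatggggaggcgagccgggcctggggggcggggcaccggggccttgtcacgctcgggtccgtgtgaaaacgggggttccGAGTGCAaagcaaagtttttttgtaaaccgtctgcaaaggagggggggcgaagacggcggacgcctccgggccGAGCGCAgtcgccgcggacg
Mt1 has 3 stretches of these letters, Mt2 has 4 and Slc30a1 has 2. The letters are short, and 28.2% of 27025 genes hold them in a window, as did 5 of the 7 genes of the list.

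Sterol synthesis and uptake genes, the targets of the transcription factor SREBP2, fell in 20 of 23 tested and none rose, with a median log2FC of -0.755. LPS+CBD replicate 3 was the lowest LPS+CBD library in all 23, beside 4487 of the 11858 genes tested, and the median was -0.603 without it. Under LPS alone 14 of 23 were higher than in EtOH, beside 10.8% of all genes, and none lower, with a median of 0.311. In LPS+CBD 21 were lower than in LPS alone, beside 24.8% of all genes. Hmgcs1, the enzyme of the first committed step to mevalonate, had 2841, 3016 and 2873 in EtOH and 1419, 1661 and 1181 in LPS+CBD (log2FC -1.05, SE 0.11, adjusted p 4.75e-05), against 0.37 (adjusted p 0.00256) under LPS alone. Stard4, a cholesterol carrier protein, had 2113, 2285 and 2107 in EtOH and 941, 964 and 616 in LPS+CBD (log2FC -1.39, SE 0.15, adjusted p 5.16e-05). The highest LPS+CBD library was below the lowest EtOH library in both, and the fall under LPS+CBD was opposite in sign to the log2FC under LPS alone. Idi1, an isomerase of isoprenoid synthesis, had a log2FC of -1.04 and Lss, the lanosterol synthase, of -1.10. Ebp, Sc5d and Tm7sf2 did not pass the test (-0.01, -0.06 and -0.29). The sterol response letters TCACNCCAC were found in 1 of 16 promoter windows of the list, that of Hmgcs1, beside 1.44% of all genes.

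All 10 genes of fatty acid synthesis fell, with a median of -1.016 (-0.815 without LPS+CBD replicate 3, the lowest in 9 of them), while under LPS alone 1 was called higher and none lower. Fasn, the fatty acid synthase, had 19635, 19686 and 16918 in EtOH and 7778, 7877 and 6375 in LPS+CBD (log2FC -1.36, SE 0.10, adjusted p 6.57e-06), and Scd1, a stearoyl-CoA desaturase, had 11877, 12512 and 13302 in EtOH and 5690.0, 5806 and 3819 in LPS+CBD (log2FC -1.32, SE 0.14, adjusted p 5.32e-05). Their regulator Srebf1, which encodes SREBP1, had 4978, 5048 and 5360.0 in EtOH and 2454, 2368 and 1743 in LPS+CBD (log2FC -1.24, adjusted p 2.5e-05). No overlap between the groups was seen in the 3 genes. Genes of cholesterol efflux and lipid storage went both ways, with 7 of 13 higher and 5 lower. Abca1, the exporter of cholesterol to apolipoprotein A-I, had 2552, 2956 and 3290.0 in EtOH and 408, 706 and 343 in LPS+CBD (log2FC -2.65, SE 0.22, adjusted p 1.1e-05), whereas Abcg1, an exporter to high-density lipoprotein, had 1258, 1513 and 1651 in EtOH and 1870.3, 2567 and 2079 in LPS+CBD (log2FC 0.56, SE 0.13, adjusted p 0.00533). Plin2, the coat protein of lipid droplets, had 4229, 4686 and 4839.5 in EtOH and 9154, 8937 and 10771 in LPS+CBD (log2FC 1.07, adjusted p 1.32e-05) and was lower than EtOH under LPS alone, at -0.55 (adjusted p 0.000425). The fatty acid binding proteins Fabp4 and Fabp5 had log2FC values of 2.46 and 1.87, and Apoe, the apolipoprotein E gene, of -0.40.

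Lysosomal genes rose in 21 of 22 tested, with a median of 0.806, and Tfeb, a transcription factor of lysosomal genes, was the one that fell, with 299, 399 and 383 in EtOH and 234, 274 and 221 in LPS+CBD (log2FC -0.56, adjusted p 0.00789). Under LPS alone 3 were higher and 5 lower, beside 10.8% and 9.72% of all genes, with a median of -0.068. Ctsd, the aspartic protease cathepsin D, had 13719.7, 12502 and 15274 in EtOH and 44585, 41588 and 51614 in LPS+CBD (log2FC 1.73, SE 0.11, adjusted p 2.66e-06). Npc1, which moves cholesterol out of lysosomes, had 1484, 1637 and 1942 in EtOH and 3814, 3995 and 3900.0 in LPS+CBD (log2FC 1.22, SE 0.10, adjusted p 8.04e-06). Gpnmb, a glycoprotein of lysosomal membranes, had 2040.0, 2279.8 and 2510.5 in EtOH and 8484, 7940.2 and 8334 in LPS+CBD (log2FC 1.86, SE 0.09, adjusted p 4.69e-07). All LPS+CBD libraries were above all EtOH libraries in these genes, and Gpnmb was lower than EtOH under LPS alone, at -0.77 (adjusted p 9.08e-05). Gla, the alpha-galactosidase, had a log2FC of 1.43, Neu1, the lysosomal sialidase, of 1.12 and Lipa, the acid lipase, of 1.15. The vacuolar ATPase subunits Atp6v0d1, Atp6v1a and Atp6v1h had log2FC values of 0.57, 0.76 and 0.69. The letters TCACGTGA of the lysosomal CLEAR element were found in 6 of 19 windows, those of Ctsa, Ctsd, Gla, Mcoln1, Atp6v0d1 and Atp6v1a, beside 1.12% of all genes.

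ATF4 is the transcription factor of the integrated stress response, which adapts cells to amino acid shortage and protein misfolding. Of 18 listed genes 14 were called higher and 1 lower, with a median of 0.715. Under LPS alone 2 were higher and 4 lower, beside 10.8% and 9.72% of all genes. Ddit3, which encodes the factor CHOP, had 893, 1001 and 1230.3 in EtOH and 2942, 2999 and 4367 in LPS+CBD (log2FC 1.71, SE 0.16, adjusted p 2.14e-05). Under LPS alone Ddit3 was lower than in EtOH, at -1.31 (adjusted p 2.6e-05), and LPS+CBD exceeded LPS alone by 3.02 (adjusted p 2.78e-06). Trib3, a pseudokinase induced by CHOP, had 1449, 1839.6 and 1833 in EtOH and 4327, 3583 and 4552 in LPS+CBD (log2FC 1.28, SE 0.12, adjusted p 1.91e-05). Slc3a2, the heavy chain of amino acid transporters, had 6729.8, 6779 and 7056 in EtOH and 26291, 20949 and 44807 in LPS+CBD (log2FC 2.09, SE 0.22, adjusted p 4.23e-05), with replicate 3 the highest. Atf3, Atf5 and Nupr1, stress-induced transcription regulators, had log2FC values of 1.52, 1.73 and 1.02. The one gene that fell was Ddit4, an inhibitor of mTORC1, with 5971, 9171 and 8255 in EtOH and 3003, 3619.7 and 1852 in LPS+CBD (log2FC -1.50, adjusted p 0.000414). The amino acid response letters TGATGNAA were found in 7 of 17 windows, beside 4.51% of all genes. Chaperones of the endoplasmic reticulum gave 11 of 15 higher and 1 lower, with a median of 0.393. Hspa5, which encodes BiP, had 28209, 26272 and 27182 in EtOH and 43928, 43479.7 and 63088 in LPS+CBD (log2FC 0.86, adjusted p 0.000696), and Dnajb9 had a log2FC of 1.12, while Edem1, which marks misfolded proteins for degradation, was the one that fell (-0.43). Heat shock protein genes of the cytosol and mitochondria gave 2 higher and 2 lower of 10 (none higher without EtOH replicate 5 or 6), with a median of 0.006, and Hspa1a and Hspa1b had at most 2.85 normalized counts in any library.

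All 18 mitosis genes fell, with a median of -1.323, and 22 of 23 DNA replication genes fell, with a median of -0.813. No gene of either list rose. LPS+CBD replicate 1 was the highest LPS+CBD library in 18 mitosis and 22 replication genes, beside 3554 of all 11858 genes, and the medians were -1.456 and -0.927 without it. Mki67, which encodes the proliferation marker Ki-67, had 11105, 11775 and 9946 in EtOH and 4238, 3491 and 3134 in LPS+CBD (log2FC -1.60, SE 0.11, adjusted p 4.14e-06). Cdk1, the kinase that drives entry into mitosis, had 2139.8, 2079.7 and 1953 in EtOH and 992, 664 and 739 in LPS+CBD (log2FC -1.39, SE 0.13, adjusted p 2.37e-05), and Rrm2, a subunit of ribonucleotide reductase, had 4137, 3572 and 3006 in EtOH and 1574, 1112 and 1029 in LPS+CBD (log2FC -1.54, SE 0.16, adjusted p 4e-05). Every LPS+CBD library was below every EtOH library in the 18 mitosis genes. The replication licensing genes Mcm2 to Mcm7 fell, with log2FC values from -0.76 in Mcm2 to -1.17 in Mcm7, and the gene that did not pass the test was Tyms, the thymidylate synthase (-0.21). Under LPS alone 1 mitosis gene, Bub1b, was called higher at 0.35 and none lower, with a median of -0.070. In bulk RNA, fewer cells in division and less RNA of these genes per cell cannot be told apart. The cell cycle homology letters TTTGAA were found in 11 of 15 mitosis gene windows, Cdk1 and Plk1 included, beside 20.2% of all genes. Targets of p53 went both ways, with 8 of 14 higher (5 without LPS+CBD replicate 1) and 3 lower. Gdf15, a stress-induced cytokine, had 22.8, 25.3 and 34.9 in EtOH and 199.8, 242 and 195 in LPS+CBD (log2FC 2.91, adjusted p 4.2e-06), and the death receptor gene Fas had 159.6, 235 and 202 in EtOH and 755, 1193 and 996 in LPS+CBD (log2FC 2.29, adjusted p 8.12e-06), whereas Cdkn1a, the cell cycle inhibitor p21, had 10572, 10963 and 12515 in EtOH and 8168, 9747 and 6949 in LPS+CBD (log2FC -0.46, adjusted p 0.00951).

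Of the 16 glycolysis genes tested 15 fell and 1 rose, with a median of -0.866. Under LPS alone 9 were lower, beside 9.72% of all genes, and none higher, with a median of -0.264. Pkm, the pyruvate kinase gene, had 155755, 175384 and 171941 in EtOH and 96872, 94023 and 72998 in LPS+CBD (log2FC -0.94, SE 0.15, adjusted p 0.000485). Gpi1, the glucose-6-phosphate isomerase, had 74509.7, 85252 and 95996 in EtOH and 35247, 40607 and 24387 in LPS+CBD (log2FC -1.38, SE 0.18, adjusted p 0.000167), and Ldha, the lactate dehydrogenase A, had 73752, 79092 and 77543 in EtOH and 47663, 42935 and 32365 in LPS+CBD (log2FC -0.92, SE 0.14, adjusted p 0.000472). LPS+CBD replicate 3 was the lowest library in each. No LPS+CBD library reached the EtOH range, as the choice of these 3 genes by size required. Slc2a1, the glucose transporter GLUT1, had a log2FC of -0.84, Pfkl and Pfkp, the phosphofructokinases, of -1.16 and -1.24, and Pdk1, which restrains pyruvate oxidation, of -1.67. The gene that rose was Pfkfb3, which makes the allosteric activator of phosphofructokinase, with 822, 798 and 927 in EtOH and 1471, 1793 and 1524 in LPS+CBD (log2FC 0.91, adjusted p 5.07e-05). In Pkm, Gpi1 and Ldha, LPS+CBD was lower than LPS alone, at -0.67, -0.90 and -0.70, a direction partly fixed by the choice of these 3 genes. In the respiratory chain list 9 of 19 genes fell and none rose, with a median of -0.238. All 6 mitochondrially encoded members were among the 9. Of these mt-Cytb, of complex III, had 59944, 54459 and 50481 in EtOH and 20417, 17661 and 23347 in LPS+CBD (log2FC -1.43, SE 0.12, adjusted p 1.16e-05), and mt-Co1, of complex IV, had 247708, 233787 and 276436 in EtOH and 190253, 182901 and 159452 in LPS+CBD (log2FC -0.51, SE 0.15, adjusted p 0.0179). The share of mitochondrial reads was lower in LPS+CBD, at 1.25% to 1.40% against 2.03% to 2.25%. It sums the reads of mitochondrially encoded genes, these members among them, and so is not a separate observation. In LPS alone at 24 h it was 1.44%, 2.32% and 2.04% in replicates 1 to 3. What lowered it was not tested. Of the nuclear members, Atp5f1a fell (-0.46), and Sdha, Cox4i1 and Cox5a are examples of those that did not pass the test (-0.09, -0.11 and 0.12).

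Of the 16 genes for enzymes and receptors of cannabinoids 8 were expressed highly enough to be tested, and 3 were higher and 2 lower. The cannabinoid receptor gene Cnr2 had 149.6, 197 and 193 in EtOH and 157, 150.4 and 135 in LPS+CBD and did not pass the test (-0.28, adjusted p 0.152). Trpv2, a cation channel that CBD is known to open, had 3232, 3391 and 3612 in EtOH and 4408, 4670.4 and 4163 in LPS+CBD (log2FC 0.37, adjusted p 0.00242). The hydrolase of 2-arachidonoylglycerol, Mgll, had 285, 233 and 277 in EtOH and 118, 97.0 and 129.6 in LPS+CBD (log2FC -1.20, adjusted p 0.000136), and its synthases Dagla and Daglb had log2FC values of 0.78 and -1.03. Trpv1, Pparg and Ppara had fewer than 3 normalized counts in every library. Immediate early and MAPK feedback genes gave 4 of 19 higher and 7 lower (4 lower without LPS+CBD replicate 3), with a median of -0.182, so that the share called was 57.9% beside 50.5% of all genes. Egr2 had a log2FC of -1.68, Ier3 of -0.46 and Jund of 0.94.

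**Figure D4:**
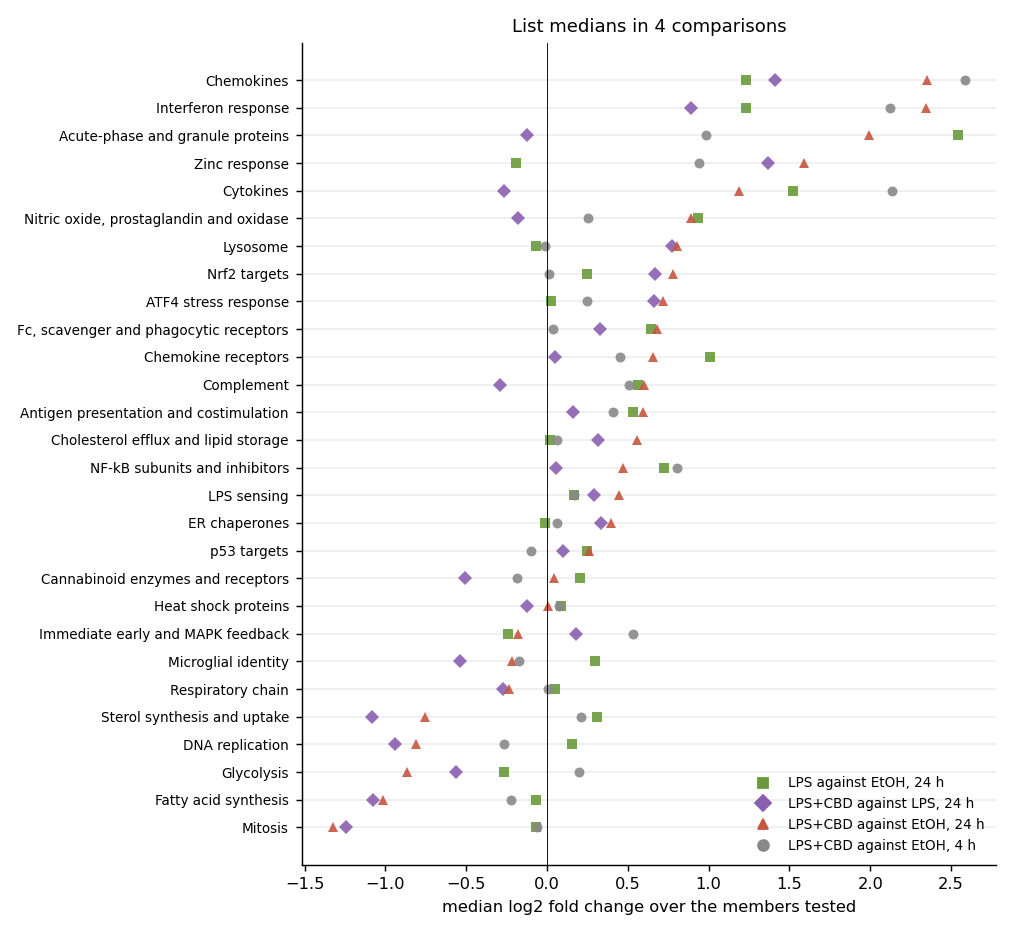
Median log2FC of each of the 28 gene lists in 4 comparisons, LPS+CBD against EtOH at 24 h, LPS against EtOH at 24 h, LPS+CBD against LPS at 24 h and LPS+CBD against EtOH at 4 h, which share libraries. Sterol synthesis stands at -0.755 for LPS+CBD against EtOH and at 0.311 for LPS alone, and mitosis at -1.323 for 24 h and -0.062 for 4 h.

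**Figure D5:**
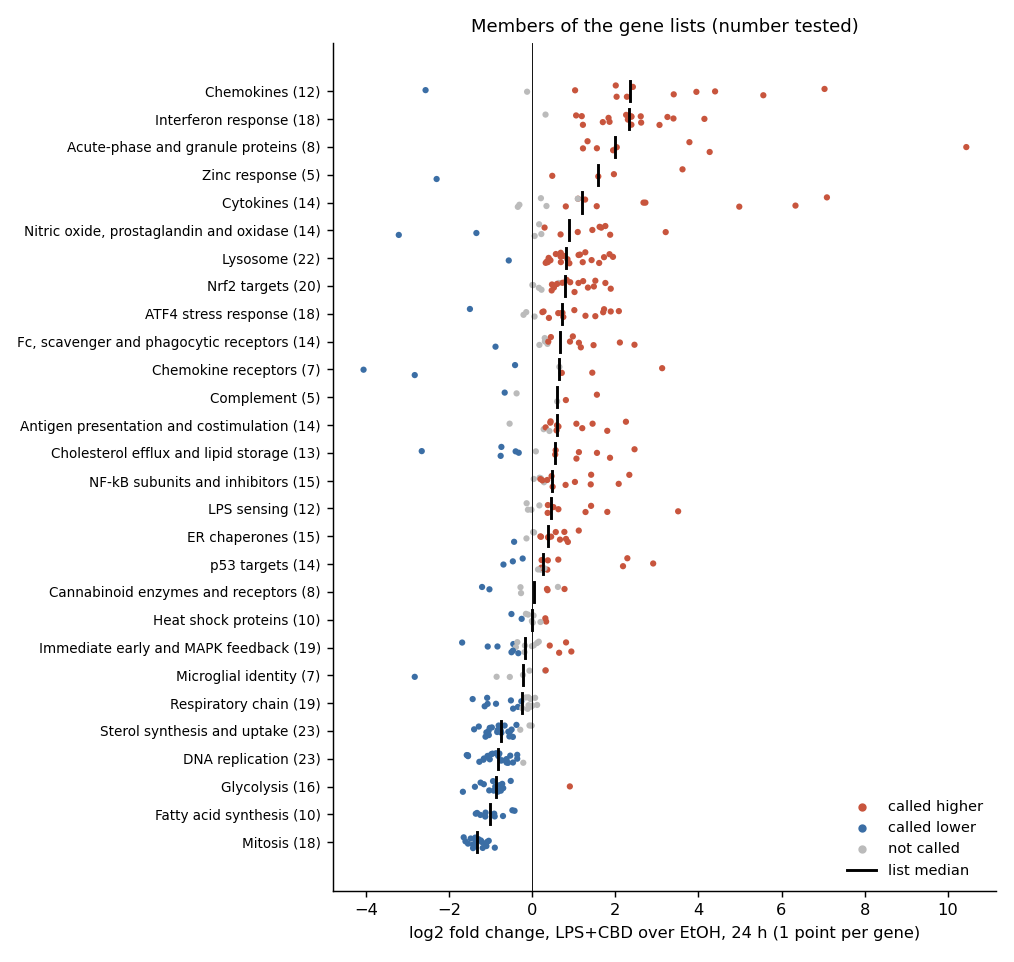
Log2FC of every tested member of each gene list in LPS+CBD against EtOH at 24 h, 1 point per gene, red where called higher, blue where called lower and grey where not called, with the list median as a black bar. All 18 mitosis and all 10 fatty acid synthesis genes lie below 0 and are called, and 17 of 18 interferon response genes lie above 0 and are called.

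Against the same EtOH libraries, LPS alone called 2412 of 11775 genes at 24 h (20.5%), 1268 higher (10.8%) and 1144 lower (9.72%), a split that was 1050 higher and 1452 lower under upper-quartile scaling. The count was 1416 without LPS replicate 3 and 1581 without EtOH replicate 5. Between LPS+CBD and LPS alone 5687 of 11671 genes were called (48.7%), 2792 higher in LPS+CBD (23.9%) and 2895 lower (24.8%). The 3 comparisons at 24 h share libraries, so their values are only set side by side. Lists of at least 5 tested genes in which LPS+CBD and LPS alone stood on opposite sides of EtOH by their medians, by at least 0.05 under each scaling tried, were sterol synthesis (-0.755 and 0.311), DNA replication (-0.813 and 0.154), microglial identity (-0.219 and 0.295), zinc response (1.592 and -0.192) and lysosome (0.806 and -0.068). The microglial identity median was 0.025 without LPS+CBD replicate 3. Of the 23 sterol synthesis genes 20 were lower under LPS+CBD and 14 higher under LPS alone. Of the 23 DNA replication genes 22 were lower under LPS+CBD and 2 higher under LPS alone (8.70%), beside 10.8% of all genes. The replication list thus stood opposite by its median and not by its calls. Of the 7 microglial identity genes tested 1 was higher and 1 lower under LPS+CBD, and 2 were higher under LPS alone. Of the lysosomal genes 21 were higher and 1 lower under LPS+CBD, against 3 higher and 5 lower under LPS alone, and of the zinc genes 4 were higher and 1 lower, against 1 lower.

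At 4 h the same treatments called 1557 of 11478 genes (13.6%), 863 higher (7.52%) and 694 lower (6.05%), which under upper-quartile scaling were 782 higher and 897 lower, and 330 had an absolute log2FC above 1. The count of 1557 dropped to 875 when EtOH replicate 6 was left out, to 911 when replicate 4 was, and to 971 in the absence of LPS+CBD replicate 3. The difference between the 24 h and the 4 h effect, tested as an interaction over 12 libraries, was called in 4160 of 12093 genes (34.4%), 1982 more positive at 24 h (16.4%) and 2178 more negative (18.0%). Ier3, a stress-inducible survival gene, was higher at 4 h by 2.32 (adjusted p 0.000224) and lower at 24 h, a difference of -2.79 (adjusted p 9.75e-06). Il1b had a log2FC of 7.49 (adjusted p 0.000414) at 4 h and a difference of -4.81 (adjusted p 0.00198), Nos2 of 6.44 (adjusted p 0.00147) and a difference of -4.56 (adjusted p 0.00399), and Cxcl2 of 6.08 (adjusted p 1.88e-05) and a difference of -2.13 (adjusted p 0.00147). These 3 inflammatory genes were thus further from EtOH at 4 h. Lcn2 and Ccl7 were further from EtOH at 24 h, with values of 4.14 and 2.43 at 4 h and differences of 6.31 (adjusted p 1.55e-05) and 4.61 (adjusted p 0.00016). Both were chosen as largest rises at 24 h, so that the direction of their differences was partly fixed by the choice.

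Some lists with many calls at 24 h had fewer at 4 h, where 7.52% of all genes were called higher and 6.05% lower. Over all genes, 16.4% were more positive at 24 h than at 4 h and 18.0% more negative. At 4 h the share called was 25.0% of the Nrf2 targets and 18.8% of the glycolysis genes, above the 13.6% of all genes. At 4 h no mitosis gene was called by limma, edgeR or DESeq2, 2 having an unadjusted p below 0.05 in limma, while all 18 had a called difference between the times. DNA replication differed from this, with 14 of 23 genes already lower at 4 h (median -0.265) and 15 more negative at 24 h. Of the 22 lysosomal genes tested 1 was higher and 1 lower at 4 h, and 19 were more positive at 24 h. In sterol synthesis 1 gene was lower at 4 h, and 20 were more negative at 24 h. In glycolysis 3 genes were higher and none lower at 4 h, among them Slc2a1 (0.91, adjusted p 0.015), and 15 were more negative at 24 h. Among the Nrf2 targets 3 were higher and 2 lower at 4 h, and 17 were more positive at 24 h. The interferon response list was different, with 16 of 18 genes higher at 4 h (median 2.121) and no gene with a called difference between the times in limma, 1 with an unadjusted p below 0.05, where 34.4% of all genes had one. Among the zinc genes, Slc30a1 rose by 1.21 (adjusted p 0.000291) and Slc39a10 had a log2FC of -1.18 (adjusted p 0.000279) at 4 h, and the difference between the times was 0.38 (adjusted p 0.13) in the former and -1.11 (adjusted p 0.000339) in the latter.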

How the data were processed

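RNA of BV-2 cells was sequenced after treatment for 24 h or 4 h. Per the labels and the methods of the study, the authors trimmed reads with cutadapt 4.4 and Trimmomatic 0.39, aligned them to GRCm39 with HISAT2 2.2.1 and counted them per gene with HTSeq 2.0.3, and FastQC 0.12.1 is also named. Whether counting used strand is not given in the sources used here. The values are signal, which the authors deposited as gene read counts divided by the size factors of DESeq2 1.40.2 (R 4.3.1), set within the 6 libraries of each table. Columns of fold changes and p-values from the study's own comparisons stand beside them and were not used. Each comparison was run within 1 table, except that the difference between the times joined 2 tables, and 5 of 30 tables were used.

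Genes with a normalized count of 10 or more in at least 3 libraries were tested with limma 3.58.1 (lmFit and eBayes with trend, R 4.3.3) on log2 of the normalized count plus 1, two-sided, with Benjamini-Hochberg adjustment over all genes tested and a threshold of 0.05. Of 17725 listed genes 11858 passed the filter at 24 h. The pseudocount understates changes of low genes. All 419859 values gave whole reads within 0.01 read once multiplied by the size factor, and edgeR 4.0.16 and DESeq2 1.42.0 were run on those reads as alternatives. A fold change against a group with 0 reads was set at a floor of 3 reads over the group, which covers counting error only. The scripts were tested on simulated data.

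Named genes are the 10 largest rises and the 10 largest falls among called genes whose groups did not overlap and whose higher group averaged 50 or more, the 5 called genes in each direction with the largest difference of means under the same conditions, predicted genes left out, and members of 28 gene lists. Genes, lists and marker lists were chosen with earlier results of these data known. List counts and medians cover all members tested, and some members are not reported here by name. No 2 libraries of a group agreed within sampling noise (chi-square per degree of freedom 4.60 to 26.7 over 15 pairs). P-values measure the spread between libraries, which the labels do not tie to separate cultures one by one. Deviations of LPS+CBD and LPS libraries of the same number at 24 h had correlations of 0.353, 0.521 and 0.126 over 10178 genes. LPS+CBD replicate 3 correlated more with LPS replicate 1 (0.173), so that pairing by number was not established for replicate 3. Values between LPS+CBD and LPS come from the fit without a replicate block unless a block is named. Promoter windows of RefSeq (GRCm38.p6) run from 250 bases before to 50 after a gene's start, and all other coordinates are GRCm39 as deposited.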

Additional observations from a re-analysis of the deposited data

Results flagged for a closer look

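The effect of LPS+CBD over EtOH differed between 24 h and 4 h in 4160 of 12093 genes tested (limma interaction over 12 libraries, Benjamini-Hochberg adjusted p below 0.05), which drew attention to the following values, each the log2FC at 24 h minus that at 4 h. Among the genes with the largest rises at 24 h, the difference was 6.31 in Lcn2, 4.61 in Ccl7, 3.00 in Il6, 3.50 in Wfdc17, 5.77 in Tenm4, 2.79 in Urah and 4.66 in Ffar2, whereas it was -1.15 in Il1a. Csf3 and Il36a did not pass this test. The rises were chosen by their values at 24 h, so that a positive difference was partly fixed by the choice.

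In all 10 genes with the largest falls the effect was more negative at 24 h than at 4 h. The difference was -6.32 in Grin1, -6.44 in Ldc1, -3.54 in Cytip, -4.77 in Il1r2, -4.70 in Atp7b, -3.29 in Spns2, -3.58 in Cxcr2, -4.28 in Selenbp1, -3.29 in Ocstamp and -3.67 in Selenbp2. Since these genes were chosen by their values at 24 h, the direction of the difference was partly fixed by the choice.

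For the genes with the largest change of mean counts, the difference was 1.51 in Fth1, 1.52 in Ftl1, 1.49 in Ctsb, 1.69 in Saa3 and 1.08 in Sqstm1, and -0.98 in Pkm, -0.62 in mt-Co1, -1.46 in Gpi1, -1.06 in Ldha and -1.39 in mt-Cytb. The choice of these genes by their values at 24 h partly fixed the direction here as well. Urah, Ffar2 and Ldc1 reached 10 normalized counts in 1 group alone at 24 h and in no library at 4 h, so that their differences are a description. Adjusted p-values of the other differences ranged from 1.65e-06 in Wfdc17 to 0.034 in Saa3. No group had enough libraries for a test of single outlying libraries.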

How the results depend on the processing

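The count of genes called between LPS+CBD and EtOH at 24 h was 5837 with DESeq2, 6021 with edgeR and 6457 with the 4 h libraries in the same fit, and leaving out 1 library gave 4851 to 5570. With an absolute log2FC above 1 required as well, the counts were 1503 for this comparison, 546 for LPS against EtOH, 1202 for LPS+CBD against LPS, 330 at 4 h and 1163 for the difference between the times. Leaving out 1 library gave 1416 to 2504 for LPS against EtOH (1416 without LPS replicate 3, 1581 without EtOH replicate 5), 4313 to 5418 for LPS+CBD against LPS, 875 to 1654 at 4 h and 3377 to 4037 for the difference between the times. No paired analysis was possible because LPS+CBD and EtOH share no replicate number. With a replicate block, 6616 genes were called between LPS+CBD and LPS, and of the differences from LPS printed for single genes only the call of Irf7 changed. Libraries of the same number and treatment at the 2 times had correlations from 0.033 to 0.459. LPS+CBD replicate 3 at 24 h correlated more with replicate 1 at 4 h (0.307), and pairing between the times was not established. The replicate block there gave 4524 genes.

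Of 2635 values of single named genes under these settings, 2598 kept their direction and side of the threshold, 18 gained a call (12 genes that did not pass, such as Csf1r and Tgfb1), 4 lost one and 15 turned sign. Those that turned sign were of genes that did not pass the test and of lists with medians from -0.219 to 0.046, and the cause was not tested. Leaving out 1 library gave -0.127 to 0.059 for Myd88, -0.051 to 0.486 for Il18, -0.230 to 0.191 for P2ry12, -0.392 to 0.085 for Tmem119, -0.041 to 0.046 for Gclc, -0.082 to 0.095 for Ebp and -0.170 to 0.030 for Sc5d. It gave list medians of -0.392 to 0.025 for microglial identity, -0.051 to 0.041 for heat shock proteins and -0.296 to 0.081 for cannabinoid genes. Upper-quartile scaling gave -0.010 for Gclc and for the heat shock median, which was -0.005 without the filter and with the 4 h libraries added. Pecam1 lost its call in 4 settings. Genes with few reads in 1 group, such as Ccl12, Ldc1 and Grin1, have imprecise ratios, and 127 of 213 named genes overlap a gene on the opposite strand.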
